A study of Homo sapiens with 34 samples.

Results

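The 10 genes described here are regulators of the primitive streak, the organizer and the first mesoderm. They are the bHLH factors MESP1, MESP2 and MSGN1, the homeobox factors MIXL1, GSC and LHX1, the cell surface receptors APLNR and PDGFRA, and the forkhead factors FOXC1 and FOXF1. They were taken by symbol and not by their values, and they are 10 of the 23189 gene symbols in the table of read counts. For each symbol the RefSeq transcript with the largest total was used. RNA was sequenced from H1 cells, an established human embryonic stem cell (hESC) line, at days 0, 2, 6 and 10 of differentiation toward cardiomyocytes. There were 3 knockdown lines, each made with a lentivirus that expresses an shRNA to the RNA of 1 factor: NKX2-5, ZEB2 or ZNF503. Cells called WT had received lentivirus too, either empty or with an shRNA to GFP, and the labels do not say which library had which. Each target gene is represented by 1 shRNA, the most effective of several that were tried, and infected cells were selected with puromycin. All groups of day 2 and later, WT included, had received the GSK3β inhibitor CHIR99021 for the first day. The WNT inhibitor IWP2 was given from day 2 on, so that the day 2 groups had at most its start and those of day 6 its whole course, and insulin reached the day 10 groups only. Day 0 cells were undifferentiated. Each of the 15 groups is given here by 2 libraries. At day 10 these are replicates 3 and 4 of WT and ZEB2 shRNA cells, and there was no ZNF503 shRNA group among those analysed at that day.

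In the embryo, WNT and NODAL signals start the primitive streak, where cells leave the epiblast and become mesoderm and endoderm. MIXL1 is an early target of these signals. GSC and LHX1 mark the anterior streak and the organizer, the signalling centre that patterns the axis, while MESP1 and MESP2 are switched on for a short time in nascent mesoderm and MESP1 marks the forerunners of most heart cells. PDGFRA and APLNR, receptors for platelet-derived growth factors and for the peptides apelin and Elabela, are carried by migrating mesoderm and are used to sort cardiac mesoderm from cultures. FOXC1 acts in paraxial mesoderm and FOXF1 in lateral plate and splanchnic mesoderm.

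The 30 libraries held between 9189943 and 90814577 counts, with the lowest total in replicate 4 of WT cells at day 10. Levels are given in CPM (counts scaled to an equal library size) after TMM normalization. Replicates differed by more than sampling noise in every group, with a chi-square per gene from 5.33 in WT cells at day 0 to 107 in NKX2-5 shRNA cells at day 10, whose 2 libraries differed most. In these 2 libraries the summed level of 6 cardiomyocyte markers was 52.9 and 309.8 CPM, and ZEB2 was at 64.3 and 144 CPM. At day 6 each target was lower than in WT cells in the line labelled for it. NKX2-5 was lowest in its own line, but neither ZNF503 nor ZEB2 singled out its line. NKX2-5 was at 84.2 and 50.4 CPM in WT cells at day 6 and at 0.993 and 0.761 CPM in NKX2-5 shRNA cells, and ZNF503 was at 8.71 and 9.33 CPM in WT cells against 0.611 and 0.648 CPM in ZNF503 shRNA cells. ZEB2 was at 96.8 and 94.1 CPM in WT and 54.6 and 57.1 CPM in ZEB2 shRNA cells at day 6, but lower still in NKX2-5 shRNA (20.5 and 20.5 CPM) and ZNF503 shRNA cells (10.9 and 12.7 CPM). At day 2 it was at 18.1 and 17.6 CPM in WT, 11.2 and 12.5 CPM in ZEB2 shRNA, 4.84 and 4.04 CPM in NKX2-5 shRNA and 10.4 and 13.7 CPM in ZNF503 shRNA cells, so that the last line overlapped ZEB2 shRNA. At day 10 it was at 116.9 and 105.3 CPM in WT and 55.0 and 54.9 CPM in ZEB2 shRNA cells. At day 2 the other targets gave no check of the labels. NKX2-5 had 6 and 4 reads in WT libraries and 6 and 0 in NKX2-5 shRNA libraries, too few to compare. ZNF503, with 34 and 32 reads, was at 1.09 and 1.96 CPM in WT cells and, with 89 and 39 reads, at 0.999 and 1.75 CPM in ZNF503 shRNA cells, so that the libraries overlapped and no reduction of the target was seen at day 2. At day 6 ZNF503 was also at 0.588 and 0.901 CPM in NKX2-5 shRNA cells, a range that holds both ZNF503 shRNA libraries. NKX2-5 was at 2.90 and 2.07 CPM in ZNF503 shRNA cells. These are bulk samples, in which fewer cells of a type and less RNA per cell cannot be told apart.

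The promoters of 6 of the 10 genes were found in the RefSeq promoter table of GRCh38.p14. The 250 bases before the start site are shown for MESP2, MSGN1 and MIXL1, the genes with matches to the motifs below, and for GSC, a streak gene without any. Capitals mark matches, on either strand, to 5 motifs for factors that act at the streak or were targeted here: the T-box motif AGGTGT, the TCF/LEF motif TCAAAG, the FOXH1 motif AATNCACA, the NKX2-5 motif TNAAGTG and the ZEB motif CACCTG. MESP2 (chr15:89776082-89776331, plus strand), MSGN1 (chr2:17816210-17816459, plus strand), MIXL1 (chr1:226223414-226223663, plus strand) and GSC (chr14:94770114-94770363, minus strand) read as follows, 5′ to 3′.
MESP2: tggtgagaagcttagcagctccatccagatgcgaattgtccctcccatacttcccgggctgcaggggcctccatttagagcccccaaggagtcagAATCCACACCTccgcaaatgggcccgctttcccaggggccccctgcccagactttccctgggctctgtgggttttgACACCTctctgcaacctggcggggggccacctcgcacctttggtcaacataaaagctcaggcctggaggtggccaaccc
MSGN1: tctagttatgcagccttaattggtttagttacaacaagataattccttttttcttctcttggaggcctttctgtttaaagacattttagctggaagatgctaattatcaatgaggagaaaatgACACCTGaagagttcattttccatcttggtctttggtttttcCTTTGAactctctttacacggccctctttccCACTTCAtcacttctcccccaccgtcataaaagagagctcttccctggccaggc
MIXL1: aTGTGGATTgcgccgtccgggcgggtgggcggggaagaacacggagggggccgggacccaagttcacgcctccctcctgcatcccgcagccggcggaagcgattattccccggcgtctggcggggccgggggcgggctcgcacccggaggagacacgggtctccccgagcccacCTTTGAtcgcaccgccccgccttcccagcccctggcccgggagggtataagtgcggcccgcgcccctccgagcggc
GSC: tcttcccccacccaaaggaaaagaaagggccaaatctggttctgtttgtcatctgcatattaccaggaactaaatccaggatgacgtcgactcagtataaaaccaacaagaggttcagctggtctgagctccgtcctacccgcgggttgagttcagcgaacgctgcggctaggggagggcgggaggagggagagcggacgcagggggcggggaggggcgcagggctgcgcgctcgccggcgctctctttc

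In the MESP2 promoter the T-box motif matched on the reverse strand at 150 and 79 bases before the start, and the FOXH1 motif at 155 bases shared letters with the first of these. The MSGN1 promoter held a reverse T-box match at 127 bases that overlapped a ZEB match at 126 bases, a TCF/LEF match at 85 bases and an NKX2-5 match at 54 bases. MIXL1 held a TCF/LEF match at 76 bases and a FOXH1 match at 249 bases, and the GSC window held none of the 5. The window of FOXC1 and those of 2 PDGFRA promoters were searched too and also held none. Of 35116 promoters of the same length, 9.57% held the T-box motif, 11.2% the TCF/LEF motif, 2.89% the FOXH1 motif, 8.73% the NKX2-5 motif and 17.5% the ZEB motif. These matches are descriptions of the letters and not sites of binding.

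In WT cells, day 2 was the time of the streak and organizer genes. From day 0 to day 2, 9 of the 10 genes rose, and all 9 that could be tested were called (at least 4-fold at an adjusted p of at most 0.1, by the edgeR quasi-likelihood test), against 8.36% of all genes tested and 5.26% called higher. MSGN1, the presomitic bHLH factor, was the gene without a test. It had 8 reads in all, in 3 of 30 libraries (4 in WT day 2 replicate 2, and 2 each in ZNF503 shRNA day 2 replicate 1 and ZEB2 shRNA day 10 replicate 3), and 0 reads allowed up to 0.0336 to 0.323 CPM depending on the library. LHX1 went from 0.987 and 0.654 CPM at day 0 to 277 and 311 CPM (log2 fold change 8.52, SE 0.20), APLNR from 0.374 and 0.262 CPM to 74.1 and 86.0 CPM (8.00, SE 0.21) and PDGFRA from 5.26 and 5.13 CPM to 390.2 and 399 CPM (6.29, SE 0.13). FOXC1, already at 12.7 and 12.8 CPM at day 0, had the smallest rise (2.36, SE 0.17), and FOXF1 rose at least 23-fold against a floor of 3 reads per library. Per kilobase of exon at day 2, LHX1 had the highest WT level at 85.7 ± 7.10 CPM per kb (SD, n = 2). PDGFRA followed at 61.9 ± 0.980, GSC at 57.0 ± 3.57, MIXL1 at 49.2 ± 0.705, APLNR at 21.9 ± 2.30 and FOXC1 at 15.9 ± 1.1 CPM per kb. The lowest of the 9 were MESP1 at 5.64 ± 0.196, MESP2 at 1.42 ± 0.0606 and FOXF1 at 0.519 ± 0.0931 CPM per kb. In each neighbouring pair of these 9 genes, both libraries of the higher gene lay above both of the lower one. Whether reads in introns were counted is not clear from the sources, so these levels may be too high for genes with long introns.

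**Figure D1:**
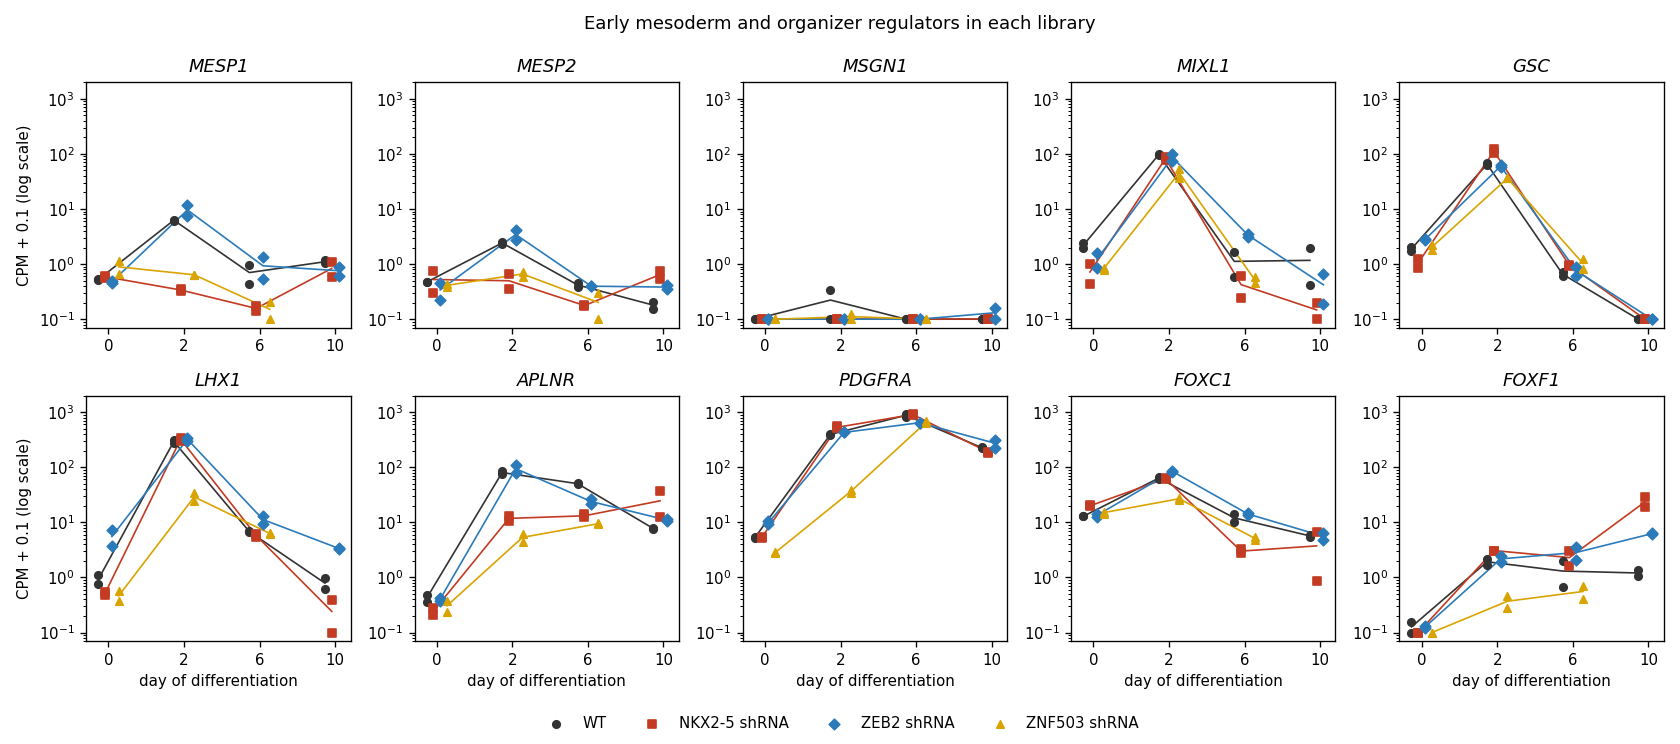
The level of each gene in every library, as CPM + 0.1 on a log axis, against the day of differentiation. Points are libraries and lines join the means of 2 libraries per line of cells, offset sideways so that they can be told apart. LHX1, GSC and MIXL1 peaked at day 2 in every line, MESP1 at day 2 in WT and ZEB2 shRNA cells (up to 11.6 CPM), and PDGFRA in ZNF503 shRNA cells rose late, from at most 38.6 CPM at day 2 to 625 and 704 CPM at day 6.

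After day 2 the genes took different courses in WT cells. Of 9 genes tested from day 2 to day 6, 4 were called lower (at least 8-fold at an adjusted p of at most 0.01) against 8.35% of all genes called: GSC (log2 fold change -6.91, SE 0.23), MIXL1 (-6.74, SE 0.48), LHX1 (-5.48, SE 0.16) and MESP1 (-3.46, SE 0.43). The sizes for MIXL1 and MESP1 rested on single libraries, with differences between -7.66 and -5.95 for MIXL1 and between -4.20 and -2.83 for MESP1 when 1 library was left out. The receptors lasted. PDGFRA rose further by 1.14 (SE 0.10, adjusted p = 7.95e-06), from 390.2 and 399 CPM to 938 and 819 CPM, and APLNR fell by 0.69 (SE 0.13, adjusted p = 0.00155), from 74.1 and 86.0 CPM to 51.1 and 49.4 CPM. From day 6 to day 10, 2 genes were called lower against 3.94% of all genes. LHX1 fell by 3.37 (SE 0.27, adjusted p = 7.01e-06), and GSC went from 0.607 and 0.505 CPM to 0 reads in both libraries, at least 2.33-fold lower when set against a floor of 3 reads per library. PDGFRA at 233 and 222 CPM and APLNR at 7.42 and 7.85 CPM were lower at day 10 than at day 6, with log2 fold changes of -1.92 (SE 0.10) and -2.69 (SE 0.15) that were short of 8-fold.

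At day 2 the 3 shRNA lines gave 3 different pictures of these genes. In ZNF503 shRNA cells, whose level of ZNF503 itself overlapped that of WT cells at this day, all 9 genes tested were lower than in WT cells at an adjusted p of at most 0.05, where 13.8% of all genes were lower, and 6 were called lower at 4-fold, where 1.99% of all genes were lower and 2.8% changed either way. The median of the 9 log2 fold changes was -3.07, beside -0.01 over all genes tested. In NKX2-5 shRNA cells 3 of 9 were called lower and none higher, beside 1.19% of all genes called in either direction, and the median was -0.06. With ZEB2 shRNA 0 of 9 were called or passed an adjusted p of 0.05 (0.133% and 0.490% of all genes) with edgeR, DESeq2 also called 0, and 2 of 9, MESP1 and FOXC1, had an unadjusted p under 0.05. The 3 comparisons share the WT libraries. The filter on low counts left 9 of the 10 genes for testing at day 2, 8 at day 0 (not FOXF1), 8 at day 6 (not MESP2) and 7 at day 10 (neither MESP2 nor GSC), always without MSGN1, and a gene could pass it through its higher group alone.

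**Figure D2:**
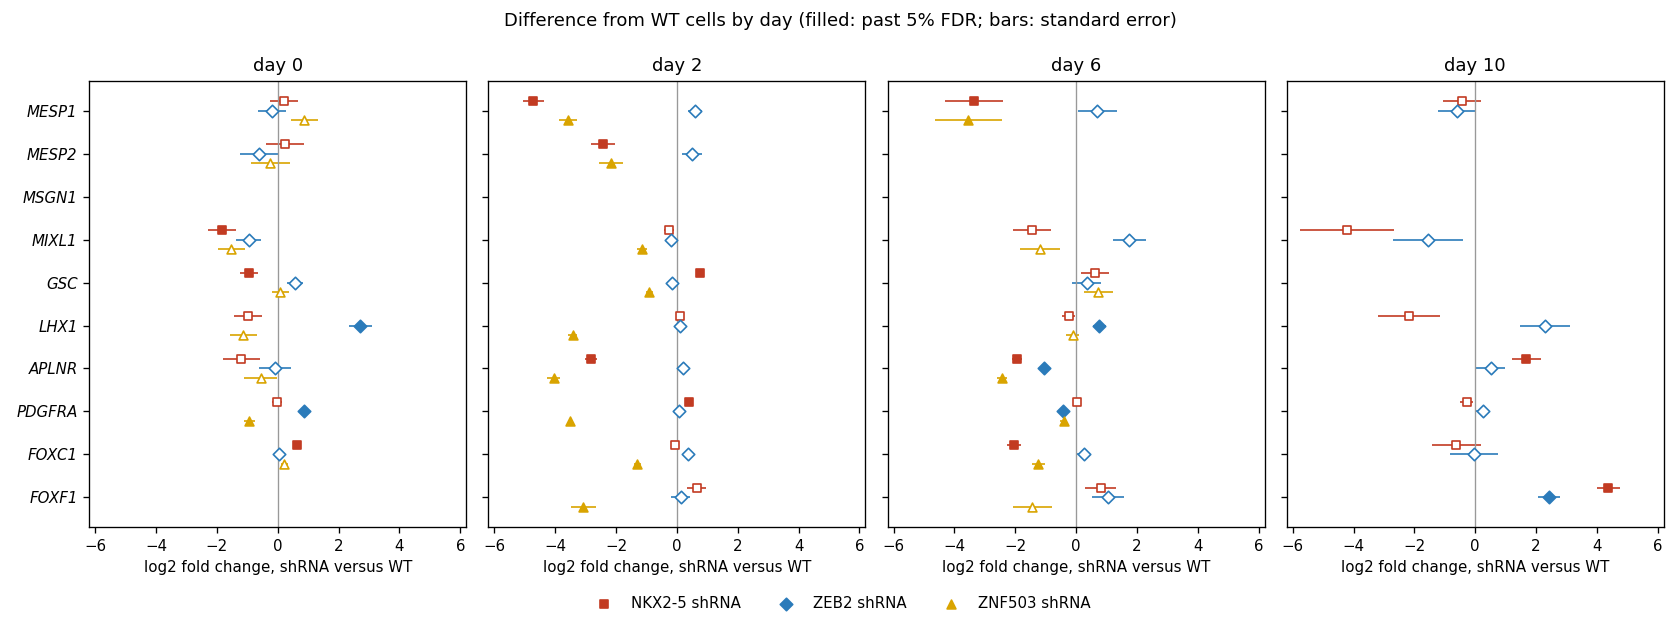
The log2 fold change of each shRNA line against WT cells (horizontal axis) for each gene at each day, with the standard error as bars. Filled symbols passed 5% FDR with edgeR. At day 2 all 9 ZNF503 shRNA symbols lie left of 0, from -4.05 at APLNR to -0.91 at GSC, and the ZEB2 shRNA symbols are open. At day 10 FOXF1 lies at 4.38 with NKX2-5 shRNA. Values for MESP1 at day 6 with NKX2-5 and ZNF503 shRNA rest on at most 2 reads in a shRNA library and are no bound.

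MESP1 had the largest reduction of the 9 genes with NKX2-5 shRNA at day 2. MESP1 (chr15:90293106-90294480 in the GRCh37 annotation, the build of all gene positions that follow, minus strand, 2 exons) directs cells of the streak toward cardiac mesoderm. It was at 6.01 and 6.32 CPM in WT libraries of day 2, at 7.42 and 11.6 CPM in ZEB2 shRNA, at 0.539 and 0.540 CPM in ZNF503 shRNA and at 0.230 and 0.248 CPM in NKX2-5 shRNA libraries. Both libraries of the last pair of lines lay far below both WT libraries. The difference from WT was -4.73 on the log2 scale with NKX2-5 shRNA (SE 0.34, adjusted p = 1.23e-06), with 3.88% of the WT level remaining, and -3.57 with ZNF503 shRNA (SE 0.30, adjusted p = 7.02e-07). In ZEB2 shRNA cells it was 0.59 (SE 0.24, adjusted p = 0.463). MESP1 was lower with NKX2-5 than with ZNF503 shRNA (log2 difference -1.16, SE 0.42, adjusted p = 0.0395), a difference whose adjusted p rose to between 0.0733 and 0.221 when any 1 of the 4 libraries was left out.

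No peak of MESP1 at day 2 was seen in either line. From day 0 to day 2, MESP1 rose by 3.90 (SE 0.43, adjusted p = 6.91e-05) in WT and by 4.61 (SE 0.39, adjusted p = 2.69e-07) in ZEB2 shRNA cells. In NKX2-5 shRNA cells it was at 0.462 and 0.519 CPM at day 0, a log2 change of -0.98 to day 2 (SE 0.58, adjusted p = 0.246). In ZNF503 shRNA cells it was at 1.03 and 0.552 CPM at day 0, a change of -0.50 (SE 0.51, adjusted p = 0.496), which became 0.011 without replicate 1 of day 0. Tested as an interaction, the change from day 0 to day 2 differed from that in WT cells by -4.93 with NKX2-5 shRNA (SE 0.56, adjusted p = 8.27e-05) and by -4.40 with ZNF503 shRNA (SE 0.49, adjusted p = 7.07e-06).

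MESP2, the neighbour of MESP1 on chromosome 15 (chr15:90319563-90321985, plus strand, 2 exons) and a factor of somite boundaries, had the same order of lines at day 2 at lower levels. It was at 2.25 and 2.39 CPM in WT, 2.65 and 4.04 CPM in ZEB2 shRNA, 0.549 and 0.248 CPM in NKX2-5 shRNA and 0.494 and 0.630 CPM in ZNF503 shRNA libraries, so that the last pair of lines overlapped each other and not WT. The differences from WT were -2.44 with NKX2-5 shRNA (SE 0.40, adjusted p = 0.000642) and -2.16 with ZNF503 shRNA (SE 0.39, adjusted p = 0.000845), and the first became -3.21 without replicate 1 of NKX2-5 shRNA cells. From day 0, MESP2 rose by 2.68 (SE 0.43) in WT and by 3.70 (SE 0.46) in ZEB2 shRNA cells. It was at 0.205 and 0.645 CPM at day 0 in NKX2-5 shRNA cells, a range that holds 1 of its day 2 libraries, and changed by 0.82 (SE 0.58, adjusted p = 0.313) in ZNF503 shRNA cells.

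By day 6 MESP1 was near the limit of detection in NKX2-5 and ZNF503 shRNA cells. Its libraries held 2 and 2 reads with NKX2-5 shRNA and 2 and 0 reads with ZNF503 shRNA, beside 0.867 and 0.337 CPM in WT cells. Against a floor of 3 reads per library it was at least 7.06-fold lower with NKX2-5 shRNA (adjusted p = 0.0107) and at least 4.39-fold lower with ZNF503 shRNA (adjusted p = 0.0167). Neither result passed without WT day 6 replicate 1 (adjusted p = 0.0827 and 0.0945), nor without replicate 2 of the shRNA line (0.0999 and 0.126). At day 10 MESP1 was at 0.477 and 0.992 CPM in NKX2-5 shRNA libraries, which overlapped WT (0.928 and 1.08 CPM) and ZEB2 shRNA (0.803 and 0.512 CPM).

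MIXL1 and GSC, the homeobox genes of the streak, were induced in every line. MIXL1 (chr1:226411365-226414761, plus strand, 2 exons) was at 95.7 and 97.7 CPM in WT, 74.7 and 97.7 CPM in ZEB2 shRNA, 77.1 and 87.6 CPM in NKX2-5 shRNA and 37.1 and 53.2 CPM in ZNF503 shRNA libraries at day 2. Only the ZNF503 shRNA libraries lay below all others. MIXL1 was lower there than in WT (log2 difference -1.16, SE 0.17, adjusted p = 0.000131), while the difference was -0.26 with NKX2-5 shRNA (SE 0.16, adjusted p = 0.251) and -0.21 with ZEB2 shRNA (SE 0.16, adjusted p = 0.779). The rise of MIXL1 from day 0 was 5.58 (SE 0.43) in WT, 7.17 (SE 0.57) in NKX2-5 shRNA, 6.28 (SE 0.33) in ZEB2 shRNA and 6.00 (SE 0.25) in ZNF503 shRNA cells. At day 0 MIXL1 was at 1.87 and 2.30 CPM in WT cells and at 0.898 and 0.340 CPM in NKX2-5 shRNA cells, the 1 of 8 genes tested that was called in this line at day 0 (at least 2-fold at 10% FDR), beside 4.03% of all genes. The difference of -1.82 (SE 0.46, adjusted p = 0.0204) was -1.23 (adjusted p = 0.104) without replicate 2 of the shRNA line and -2.62 without replicate 1, and its adjusted p was 0.068 and 0.119 without WT replicate 1 or 2. In ZNF503 shRNA cells MIXL1 was at 0.697 and 0.746 CPM at day 0 and was again the 1 called of 8, beside 2.56% of all genes (-1.53, SE 0.44, adjusted p = 0.054), a call that was lost when any 1 of the 4 libraries was left out.

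GSC (chr14:95234560-95236450, minus strand, 3 exons), the organizer factor, went in opposite directions in NKX2-5 and ZNF503 shRNA cells. At day 2 it was at 67.9 and 62.1 CPM in WT, 57.9 and 61.7 CPM in ZEB2 shRNA, 104 and 120.2 CPM in NKX2-5 shRNA and 35.8 and 36.3 CPM in ZNF503 shRNA libraries. None of these 3 levels, WT, NKX2-5 shRNA and ZNF503 shRNA, overlapped another. The log2 difference from WT was 0.75 with NKX2-5 shRNA (SE 0.11, adjusted p = 0.000233) and -0.91 with ZNF503 shRNA (SE 0.11, adjusted p = 2.62e-05), both under 4-fold. Compared directly, it was 3.15-fold higher with NKX2-5 than with ZNF503 shRNA (log2 difference 1.66, SE 0.11, adjusted p = 4.37e-08). At day 10 GSC had 0 reads in all 6 libraries, which allowed up to 0.0927 to 0.323 CPM.

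LHX1 separated the lines most sharply among the homeobox genes. LHX1 (chr17:35294772-35301912, plus strand, 6 exons), a LIM homeobox factor of the organizer, overlaps an annotated gene on the opposite strand (ENSG00000276707), and the strand setting of the counting is not stated, so reads of the 2 cannot be told apart. At day 2 it was at 277 and 311 CPM in WT, 304 and 342 CPM in NKX2-5 shRNA, 300.1 and 343 CPM in ZEB2 shRNA, and 24.3 and 33.4 CPM in ZNF503 shRNA libraries. The first 3 lines overlapped, and the ZNF503 shRNA libraries were about an order of magnitude below them. The difference from WT was -3.42 with ZNF503 shRNA (SE 0.15, adjusted p = 1.32e-09) and 0.11 with NKX2-5 shRNA (SE 0.13, adjusted p = 0.583), and LHX1 was 11.5-fold higher with NKX2-5 than with ZNF503 shRNA (adjusted p = 4.23e-10).

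LHX1 was the 1 gene of the list called with ZEB2 shRNA at day 0, when the target itself was too low to compare (6 and 14 reads of ZEB2 in ZEB2 shRNA and 0 and 9 in WT libraries). At day 0 LHX1 was at 7.19 and 3.69 CPM in ZEB2 shRNA cells and at 0.987 and 0.654 CPM in WT cells, and its 2 ZEB2 shRNA libraries lay above those of all other lines. It was called higher (log2 difference 2.71, SE 0.38, adjusted p = 0.00215), the only call of 8 genes tested at day 0 in this line, against 2.2% of all genes, and the difference was between 2.13 and 3.11 when 1 library was left out. Markers of other cells were also higher in ZEB2 shRNA than in WT cells at day 0. The summed level of 6 endoderm markers was 12.7 to 15.5 CPM in ZEB2 shRNA and 5.05 to 6.83 CPM in WT cells, that of 6 hepatic markers 12.8 to 12.9 CPM and 2.04 to 2.69 CPM, that of 6 neural markers 20.4 to 22.9 CPM and 10.0 to 12.1 CPM, and that of 8 fibroblast and smooth muscle markers 30.1 to 32.8 CPM against at most 15.2 CPM. NKX2-5 shRNA cells at day 0 had LHX1 at only 0.385 and 0.448 CPM. Their neural sum was 20.0 to 20.6 CPM and their fibroblast and smooth muscle sum 20.6 to 30.7 CPM. Their endoderm sum was 4.21 to 5.06 CPM and their hepatic sum 4.44 to 5.18 CPM. The part of these markers in the LHX1 result was not tested. With day 2 levels alike, the rise of LHX1 from day 0 was smaller in ZEB2 shRNA than in WT cells (difference of the log2 changes -2.62, SE 0.39, adjusted p = 0.0016, and between -3.01 and -2.03 when 1 library was left out). At day 6 LHX1 was at 13.0 and 9.29 CPM with ZEB2 shRNA and 6.54 and 6.81 CPM in WT cells (0.76, SE 0.22, adjusted p = 0.0398), but the adjusted p was 0.339 without ZEB2 shRNA replicate 1, 0.162 without WT replicate 1 and 0.107 without WT replicate 2. At day 10 it was at 3.18 and 3.37 CPM against 0.515 and 0.860 CPM in WT cells, a difference of 2.29 (SE 0.82, adjusted p = 0.0944) that did not pass.

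At day 2 both receptors were lower than in WT with ZNF503 shRNA, and only APLNR was lower with NKX2-5 shRNA too. APLNR (chr11:57001065-57004724, minus strand, 1 exon) was at 74.1 and 86.0 CPM in WT, 77.0 and 112 CPM in ZEB2 shRNA, 10.5 and 12.9 CPM in NKX2-5 shRNA and 4.36 and 6.12 CPM in ZNF503 shRNA libraries at day 2. WT and ZEB2 shRNA cells overlapped, and the other lines lay below them without overlapping each other. The log2 difference from WT was -2.82 with NKX2-5 shRNA (SE 0.19, adjusted p = 9.18e-07), leaving 14.6% of the WT level, and -4.05 with ZNF503 shRNA (SE 0.21, adjusted p = 6.26e-09), the largest among the 9 genes in that comparison. It was higher with NKX2-5 than with ZNF503 shRNA by 1.23 (SE 0.21, adjusted p = 0.000317).

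APLNR was the gene of the list that differed from WT in every line at day 6. It was at 51.1 and 49.4 CPM in WT, 26.4 and 21.1 CPM in ZEB2 shRNA, 12.3 and 13.8 CPM in NKX2-5 shRNA and 9.11 and 9.56 CPM in ZNF503 shRNA libraries, with no overlap between any lines. The log2 differences from WT were -1.07 (SE 0.15, adjusted p = 0.000577), -1.95 (SE 0.15, adjusted p = 7.01e-07) and -2.43 (SE 0.16, adjusted p = 2.14e-07) in this order, all short of 8-fold. NKX2-5 and ZNF503 shRNA cells differed by 0.48 (SE 0.16, adjusted p = 0.0609). At day 10 the order was different, with 12.3 and 36.7 CPM in NKX2-5 shRNA, 10.4 and 11.4 CPM in ZEB2 shRNA and 7.42 and 7.85 CPM in WT libraries. The NKX2-5 shRNA libraries lay above WT (1.68, SE 0.48, adjusted p = 0.0254), but by 0.71 (adjusted p = 0.0579) without their replicate 2 and by 2.27 without their replicate 1, and the adjusted p was 0.136 and 0.116 without WT replicate 3 or 4. Endothelial markers moved with APLNR, which endothelium also carries: all 6 markers were detected, with a summed level of 126 to 172 CPM in NKX2-5 shRNA, 40.3 to 49.5 CPM in ZEB2 shRNA and 9.36 to 29.6 CPM in WT cells, and their part in the result was not tested.

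PDGFRA (chr4:55095460-55164412, plus strand, 23 exons) was low in ZNF503 shRNA cells at day 2 and near the other lines by day 6. It shares its strand with an overlapping annotated gene (ENSG00000282278), so its reads cannot be assigned with certainty. It was at 390.2 and 399 CPM in WT, 428 and 431 CPM in ZEB2 shRNA, 553 and 509.6 CPM in NKX2-5 shRNA and 34.0 and 38.6 CPM in ZNF503 shRNA libraries. The ZNF503 shRNA libraries lay far below the rest. The log2 difference from WT was -3.50 with ZNF503 shRNA (SE 0.09, adjusted p = 1.02e-11) and 0.40 with NKX2-5 shRNA (SE 0.08, adjusted p = 0.00279), and it was 14.9-fold higher with NKX2-5 than with ZNF503 shRNA (adjusted p = 1.36e-12). By day 6 the ZNF503 shRNA libraries had reached 625 and 704 CPM, beside 938 and 819 CPM in WT cells. The remaining difference was -0.41 (SE 0.11, adjusted p = 0.00855), with an adjusted p of 0.0654 without WT replicate 1. PDGFRA in NKX2-5 shRNA cells, at 928 and 887 CPM, overlapped WT at day 6, and ZEB2 shRNA cells held 644 and 642 CPM (-0.45, SE 0.11, adjusted p = 0.0237, and 0.14 to 0.166 without either ZEB2 shRNA library or WT replicate 1). At day 0 PDGFRA was at 5.26 and 5.13 CPM in WT, 2.72 and 2.75 CPM in ZNF503 shRNA and 9.20 and 10.3 CPM in ZEB2 shRNA cells, with log2 differences of -0.93 (SE 0.18, adjusted p = 0.011) and 0.88 (SE 0.17, adjusted p = 0.0135). The first did not pass when any 1 of its 4 libraries was left out (adjusted p 0.0794 to 0.127), nor the second without either WT library or ZEB2 shRNA replicate 2 (0.0808 to 0.144).

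The changes of PDGFRA and LHX1 from day 2 to day 6 in ZNF503 shRNA cells were set against those in WT cells as an interaction. In ZNF503 shRNA cells PDGFRA rose by 4.18 (SE 0.13) and LHX1 fell by 2.24 (SE 0.22) over these days, beside 1.14 and -5.48 in WT cells. The changes differed by 3.08 for PDGFRA (SE 0.14, adjusted p = 1e-10) and by 3.29 for LHX1 (SE 0.25, adjusted p = 2.43e-08), the 2 calls among 9 genes against 3.81% of all genes. At day 6 LHX1 was at 6.31 and 6.08 CPM in ZNF503 shRNA and 6.54 and 6.81 CPM in WT cells.

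**Figure D3:**
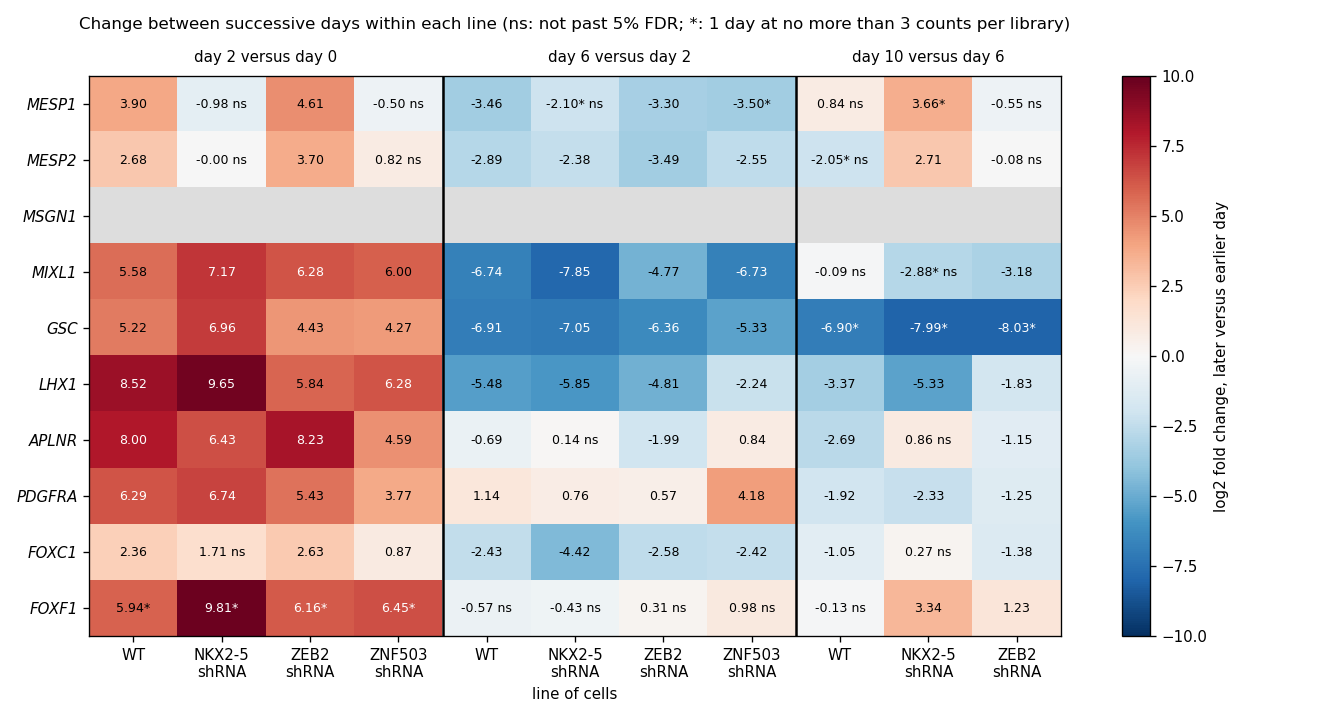
The log2 fold change between successive days (color, with its value in each cell) for each gene and line. Cells marked ns did not pass 5% FDR, an asterisk marks a fold whose one day had at most 3 reads in each library, so that its size is no bound, and MSGN1 was not tested. PDGFRA rose by 4.18 from day 2 to day 6 with ZNF503 shRNA and by 1.14 in WT cells, and LHX1 fell by 2.24 and 5.48.

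Over the time course, 6 of 9 genes were called higher at day 2 than at day 0 in NKX2-5 shRNA cells (8.94% of all genes), 9 with ZEB2 shRNA (10.7%) and 6 with ZNF503 shRNA (4.03%). From day 2 to day 6, 4 were called lower in NKX2-5 shRNA cells (9.04% of all genes), 5 in ZEB2 shRNA cells (8.14%), and 3 lower and 1 higher in ZNF503 shRNA cells (9.82%). The forkhead gene FOXC1 was among the calls with NKX2-5 shRNA, where it fell by 4.42 (SE 0.73, adjusted p = 0.0018). This call at 1% FDR was lost when any 1 of the 4 libraries was left out (adjusted p up to 0.0231), which left 3 calls. From day 6 to day 10, 2 were called higher and 2 lower in NKX2-5 shRNA cells (5.53% of all genes) and 2 lower in ZEB2 shRNA cells (4.1%). FOXF1 was among those higher, by 3.34 (SE 0.41, adjusted p = 0.000912), and by 3.96 without NKX2-5 shRNA day 6 replicate 2.

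Between day 0 and day 2 the same interaction was called for 4 of 9 genes in ZNF503 shRNA cells, all lower, against 3.4% of all genes. Besides MESP1 these were APLNR (-3.49, SE 0.59, adjusted p = 0.000376), PDGFRA (-2.55, SE 0.15, adjusted p = 1.81e-08) and LHX1 (-2.29, SE 0.57, adjusted p = 0.0071). Without ZNF503 shRNA day 0 replicate 2, the adjusted p of APLNR was 0.0563 and that of LHX1 was 0.176. All 3 genes still rose in these cells, APLNR by 4.59 (SE 0.35), PDGFRA by 3.77 (SE 0.14) and LHX1 by 6.28 (SE 0.28) on the log2 scale. In NKX2-5 shRNA cells MESP1 and MESP2 were called, 2 of 9 against 0.934% of all genes. MESP2 was at the edge of the call, with a difference of -2.69 (SE 0.76, adjusted p = 0.0552) that lay between -3.46 and -1.57, with adjusted p up to 0.395, when 1 library was left out. LHX1 was the 1 call of 9 in ZEB2 shRNA cells, against 0.502% of all genes. Between day 2 and day 6, edgeR and DESeq2 called 0 of 9 with NKX2-5 shRNA and 0 of 9 with ZEB2 shRNA (3.78% and 0.225% of all genes by edgeR), and 3 and 4 had an unadjusted p under 0.05.

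FOXC1 (chr6:1610150-1614132, plus strand, 1 exon) was already present at day 0 and was reduced at different times in the lines. At day 2 it was at 60.3 and 66.5 CPM in WT, 59.9 and 64.1 CPM in NKX2-5 shRNA, 81.5 and 86.9 CPM in ZEB2 shRNA and 25.7 and 27.7 CPM in ZNF503 shRNA libraries. ZNF503 shRNA cells lay below all others (-1.30 from WT, SE 0.11, adjusted p = 7.08e-07), and NKX2-5 shRNA cells overlapped WT (-0.06, SE 0.11, adjusted p = 0.695). At day 6 FOXC1 was at 13.8 and 10.1 CPM in WT, 14.6 and 13.6 CPM in ZEB2 shRNA, 2.65 and 3.16 CPM in NKX2-5 shRNA and 4.78 and 5.31 CPM in ZNF503 shRNA libraries. Both of the last lines now lay below WT, with log2 differences of -2.03 with NKX2-5 shRNA (SE 0.23, adjusted p = 1.35e-05) and -1.24 with ZNF503 shRNA (SE 0.22, adjusted p = 0.000591). Its change from day 2 to day 6 differed from that in WT cells by -1.96 with NKX2-5 shRNA (SE 0.22, adjusted p = 2.11e-06). At day 10 its 2 NKX2-5 shRNA libraries, at 0.763 and 6.52 CPM, enclosed the WT libraries at 5.77 and 5.38 CPM. At day 0 FOXC1 was higher with NKX2-5 shRNA, at 19.4 and 20.3 CPM against 12.7 and 12.8 CPM in WT cells (0.62, SE 0.13, adjusted p = 0.00788), with an adjusted p of 0.0821 and 0.0778 without WT replicate 1 or 2.

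FOXF1 (chr16:86544133-86549028, plus strand, 2 exons), a gene of the mesoderm around the gut, was low at day 2 and gave the one call of the list at day 10. At day 2 it was at 2.06 and 1.59 CPM in WT, 2.98 and 2.97 CPM in NKX2-5 shRNA, 1.79 and 2.35 CPM in ZEB2 shRNA and 0.180 and 0.360 CPM in ZNF503 shRNA libraries. The ZNF503 shRNA libraries lay below the rest (-3.07 from WT, SE 0.41, adjusted p = 7.71e-05, and -2.38 without their replicate 1). At day 10 FOXF1 was at 18.6 and 28.3 CPM in NKX2-5 shRNA, 6.06 and 6.19 CPM in ZEB2 shRNA and 1.24 and 0.968 CPM in WT libraries, with no overlap between lines. It was 20.8-fold higher with NKX2-5 shRNA than in WT cells (log2 difference 4.38, SE 0.37, adjusted p = 0.000319), the 1 called of 7 genes tested, against 7.31% of all genes, and the difference stayed between 4.04 and 4.64 when 1 library was left out. With ZEB2 shRNA it was higher than in WT by 2.43 (SE 0.36, adjusted p = 0.00616), under 8-fold, and 0 of 7 genes were called in this line (1.46% of all genes) although 2 of 7 had an unadjusted p under 0.05. The FOXF1 difference with ZEB2 shRNA had an adjusted p of 0.0513 without ZEB2 shRNA replicate 4 and 0.0566 without WT replicate 4.

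At day 10 markers of other cells differed between the lines too. The hepatic markers had the order of FOXF1, with NKX2-5 shRNA above ZEB2 shRNA and WT lowest, but they were not alone in it. The sums of the endothelial, endoderm and pluripotent cell markers and of the streak genes had this order too. For the endoderm markers the sum was 169.8 to 275.5 CPM in NKX2-5 shRNA, 71.7 to 74.4 CPM in ZEB2 shRNA and 24.3 to 29.9 CPM in WT cells. The fibroblast and smooth muscle ranges of NKX2-5 and ZEB2 shRNA cells overlapped above WT. The cardiomyocyte markers had the reverse order, and the blood markers of ZEB2 shRNA cells lay within the WT range. The summed level of 8 fibroblast and smooth muscle markers, all detected in each line, was 3096 to 5633 CPM in NKX2-5 shRNA, 5429 to 6104 CPM in ZEB2 shRNA and 1058 to 1646 CPM in WT cells. That of 6 hepatic markers was 32154 to 43557 CPM in NKX2-5 shRNA, 8187 to 9741 CPM in ZEB2 shRNA and 1627 to 4129 CPM in WT cells, and that of 6 cardiomyocyte markers 52.9 to 309.8 CPM, 3410.1 to 5152 CPM and 11995 to 14922 CPM. Blood cell markers summed to 899 to 1023 CPM in NKX2-5 shRNA, 22.6 to 22.9 CPM in ZEB2 shRNA and 11.1 to 40.9 CPM in WT cells. The part of these in the FOXF1 result was not tested. PDGFRA, which fibroblasts and smooth muscle also carry, did not follow the markers of these cells. It was at 193 and 181 CPM in NKX2-5 shRNA, 226 and 318 CPM in ZEB2 shRNA and 233 and 222 CPM in WT cells. Its difference from WT was -0.28 with NKX2-5 shRNA (SE 0.22, adjusted p = 0.327).

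No gene of the list was called against WT at day 6 (8-fold at 1% FDR), with 0 of 8 tested called by edgeR in each line. MESP1 came nearest, with fitted log2 differences of -3.35 with NKX2-5 shRNA and -3.54 with ZNF503 shRNA that passed 8-fold but not 1% FDR, and that are no bounds at 0 to 2 reads. Of all genes, 4.71% were called with NKX2-5 shRNA, 0.462% with ZEB2 shRNA and 3.91% with ZNF503 shRNA. At an adjusted p of at most 0.05 and no threshold of fold, 3 of 8 differed with NKX2-5 shRNA, 3 with ZEB2 shRNA and 4 with ZNF503 shRNA, beside 49.1%, 11% and 55.7% of all genes, and 4, 4 and 5 of 8 had an unadjusted p under 0.05. DESeq2 called 0 of 8 in each line as well. MIXL1 was at 1.56 and 0.481 CPM in WT, 3.05 and 3.47 CPM in ZEB2 shRNA, 0.147 and 0.501 CPM in NKX2-5 shRNA and 0.356 and 0.486 CPM in ZNF503 shRNA libraries at this day. Its ZEB2 shRNA libraries lay above all others, with a difference from WT of 1.75 (SE 0.54, adjusted p = 0.0607) that did not pass.

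Set directly against each other at day 2, NKX2-5 and ZNF503 shRNA cells differed at 8 of 9 genes at an adjusted p of at most 0.05, beside 39.5% of all genes. Higher with NKX2-5 shRNA and called at 4-fold were PDGFRA (3.90, SE 0.09), FOXF1 (3.72, SE 0.39, and 3.02 without ZNF503 shRNA replicate 1) and LHX1 (3.53, SE 0.15), against 3.98% of all genes called. MESP2 was the gene whose libraries overlapped. ZEB2 and ZNF503 shRNA cells differed at all 9 genes (29.3% of all genes), each higher with ZEB2 shRNA, with 6 called against 2.83% of all genes, from APLNR (4.24, SE 0.21) to GSC (0.74, SE 0.11). At day 6, NKX2-5 and ZNF503 shRNA cells gave no call of 8 tested by edgeR (0.395% of all genes; 4 had an unadjusted p under 0.05 and DESeq2 called 0 of 8). FOXF1 was at 1.51 and 2.88 CPM with NKX2-5 shRNA and 0.305 and 0.608 CPM with ZNF503 shRNA (2.25, SE 0.61, adjusted p = 0.0302), a difference that did not pass without NKX2-5 shRNA replicate 2 or without either ZNF503 shRNA library (0.0598 to 0.215). At day 10 edgeR called 0 of 7 between NKX2-5 and ZEB2 shRNA cells (1.95% of all genes), DESeq2 called 1 and 4 had an unadjusted p under 0.05. At 5% FDR, which 21.3% of all genes passed, the lines differed at LHX1 (-4.46, SE 0.93, adjusted p = 0.0185) and FOXF1 (1.95, SE 0.32, adjusted p = 0.00844), neither of which passed without either ZEB2 shRNA library (0.125 and 0.128 for LHX1, 0.103 and 0.0938 for FOXF1). LHX1 had 0 and 6 reads in the NKX2-5 shRNA libraries, and its difference was -3.50 without replicate 1 and -9.11 without replicate 2.

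The list was read beside other genes of the same territories. In ZNF503 shRNA cells at day 2, 8 of 12 streak and mesendoderm genes tested were lower at an adjusted p of at most 0.05 and none was higher, with a median log2 fold change of -0.93, where 26.9% of all genes changed at 5% FDR and 13.8% were lower. The 2 called were EVX1, a posterior streak factor (-2.99, SE 0.38, adjusted p = 4.17e-05), and FGF17, a growth factor of the streak (-2.61, SE 0.13, adjusted p = 3.93e-09). The 2 calls of 12 stand beside 2.8% of all genes. In NKX2-5 shRNA cells 4 of the 12 were lower and 1 higher, beside 26.7% of all genes at 5% FDR, with a median of -0.23, and EVX1 was the 1 called (-2.43, SE 0.37, adjusted p = 0.00033). The 1 call of 12 stands beside 1.19% of all genes. Of 10 paraxial and presomitic genes, 6 were lower with ZNF503 shRNA (median -1.78, against 13.8% of all genes lower), among them DLL3, a Notch ligand (-2.40, SE 0.24), and RSPO3, a WNT enhancer (-2.56, SE 0.40). With NKX2-5 shRNA 3 were lower and 1 higher (median -0.52), so that 4 of 10 changed beside 26.7% of all genes.

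**Figure D4:**
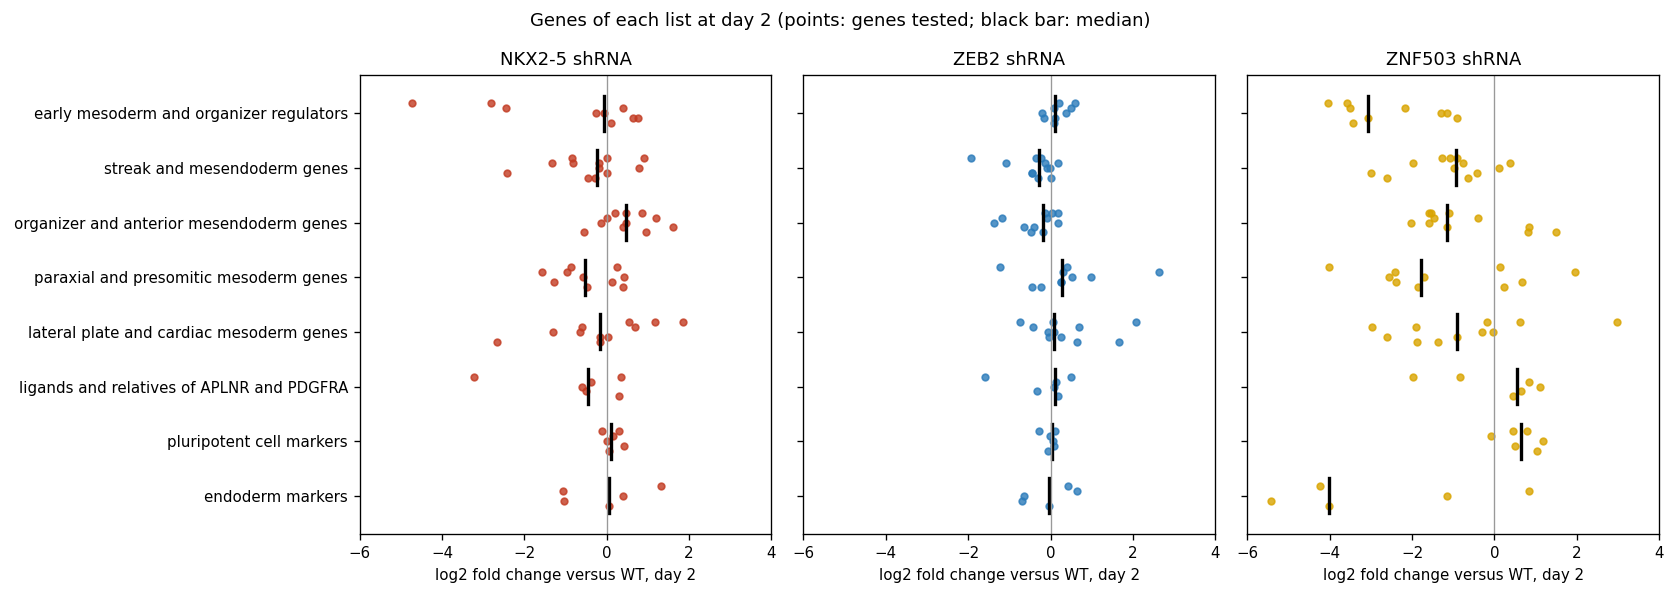
The log2 fold change against WT cells at day 2 (horizontal axis) of the genes tested in each list, 1 point per gene, with the median as a black bar. With ZNF503 shRNA the medians of the described genes (-3.07), paraxial genes (-1.78) and endoderm markers (-4.01) lie left of 0, and with NKX2-5 shRNA the median of the organizer genes lies at 0.46.

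The medians of the organizer list had opposite signs in NKX2-5 and ZNF503 shRNA cells, a difference that was not tested over the list. Of 11 organizer and anterior mesendoderm genes tested at day 2, 7 were higher and 1 lower than in WT with NKX2-5 shRNA (median 0.46), and 3 were higher and 7 lower with ZNF503 shRNA (median -1.15), where DKK1, a secreted WNT inhibitor, was the 1 called (-2.02, SE 0.23, adjusted p = 1.37e-05). These are 8 of 11 and 10 of 11 genes at 5% FDR, beside 26.7% and 26.9% of all genes. The 1 call of 11 with ZNF503 shRNA stands beside 2.8% of all genes. Their summed level was 2378 to 2413 CPM in WT, 4134 to 4347 CPM in NKX2-5 shRNA, 2493 to 2494 CPM in ZEB2 shRNA and 881 to 996 CPM in ZNF503 shRNA cells. CER1, a secreted antagonist of NODAL, BMP and WNT, took most of it, and was chosen here after its values were seen: its log2 difference from WT was 0.86 with NKX2-5 shRNA (SE 0.08, adjusted p = 1e-05) and -1.59 with ZNF503 shRNA (SE 0.08, adjusted p = 5.13e-09). Endoderm markers, which share FOXA2 with the organizer list, moved the same way at day 2. The sum of 6 such markers was 159 to 175 CPM in WT, 258 to 281 CPM in NKX2-5 shRNA, 159 to 176 CPM in ZEB2 shRNA and 30.2 to 38.9 CPM in ZNF503 shRNA cells. Neural markers summed to 10.2 to 15.6 CPM in ZNF503 shRNA cells and 3.76 to 4.17 CPM in WT cells. The sum of 6 pluripotent cell markers was 2382 to 2393 CPM in WT, 2729 to 2777 CPM in NKX2-5 shRNA, 2488 to 2515 CPM in ZEB2 shRNA and 2973 to 3071 CPM in ZNF503 shRNA cells. The part of these in the results was not tested. In ZEB2 shRNA cells none of the 5 pathway lists had a call at day 2, and 2 of 11 organizer genes were lower at 5% FDR.

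Of 11 lateral plate and cardiac genes tested at day 2, 1 was higher and 5 were lower with ZNF503 shRNA (median -0.91), 6 of 11 at 5% FDR beside 26.9% of all genes. The lower genes included GATA6, a GATA factor of mesoderm and endoderm (-2.60, SE 0.19, adjusted p = 1.9e-07), and ISL1, a factor of cardiac progenitors (-2.98, SE 0.37, adjusted p = 3.09e-05). TBX5, a T-box factor of the forming heart, was higher (2.98, SE 0.51, adjusted p = 0.00055), at means of 2.06 CPM against 0.280 CPM. With NKX2-5 shRNA 2 were higher and 2 lower, 4 of 11 beside 26.7% of all genes, and none was called. At day 6, 9 of 12 were lower and 2 higher with NKX2-5 shRNA, and 9 lower and 2 higher with ZNF503 shRNA, where 49.1% and 55.7% of all genes changed in either direction at 5% FDR. In each line 5 of 12 were called, against 4.71% and 3.91% of all genes. The summed cardiomyocyte markers stood at 35.7 to 44.9 CPM and 149 to 199 CPM, against 7895 to 9732 CPM in WT cells, and their part in these counts was not tested.

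The ligand genes had courses of their own. APELA, the gene of Elabela, was on the list too but had no entry among the matched gene symbols, so it was not measured here. Of 6 ligands and relatives of APLNR and PDGFRA tested at day 2, 3 were lower with NKX2-5 shRNA (median -0.45), and 3 were higher and 1 lower with ZNF503 shRNA (median 0.55), so that 3 and 4 of 6 changed, beside 26.7% and 26.9% of all genes. PDGFRB, the relative of PDGFRA, was the 1 called, lower with NKX2-5 shRNA (-3.21, SE 0.72, adjusted p = 0.00503), where 1.19% of all genes were called. The genes that follow at day 2 were chosen after their values were seen. APLN, the gene of apelin, had a mean of 6.51 CPM in WT, 8.36 CPM in NKX2-5 shRNA and 1.73 CPM in ZNF503 shRNA cells, with log2 differences from WT of 0.34 (SE 0.21, adjusted p = 0.25) and -1.98 (SE 0.23, adjusted p = 2.14e-05). PDGFA was higher than in WT with ZNF503 shRNA (0.85, SE 0.10, adjusted p = 3.08e-05), and so was PDGFB (1.11, SE 0.17, adjusted p = 0.000246). At day 6 APLN had a mean of 0.0241 CPM in WT cells and was called higher in all 3 lines. Set against a floor of 3 reads per library, it was at least 29.6-fold higher with NKX2-5 shRNA, at least 9.89-fold higher with ZEB2 shRNA and at least 32.6-fold higher with ZNF503 shRNA.

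Across the 15 groups the genes fell into patterns that can be described by correlation of mean log2(CPM + 1). Groups share lines, days and WT libraries, so no p is given. The highest correlations within the list were those of MIXL1 with GSC (r = 0.968, n = 15 groups), MESP1 with MESP2 (0.944) and MIXL1 with LHX1 (0.918). They were followed by GSC with LHX1 (0.898), MIXL1 with FOXC1 (0.889), GSC with FOXC1 (0.885) and APLNR with PDGFRA (0.871). FOXC1 and FOXF1 had the lowest (-0.261). Among 14674 other genes with a mean of at least 5 CPM in some group, the 3 most like MIXL1 were TBXT, the streak T-box factor (0.988), CER1 (0.982) and SAMD3 (0.980), and those most like GSC were FGF4, a streak growth factor (0.985), PPIAP46 and SEZ6L (0.981 each). For LHX1 they were SKINT1L (0.963), ASB5 and CYP1B1 (0.959 each). TBX6, a T-box factor of paraxial mesoderm, was among the 3 for both MESP genes. For MESP1 they were TBX6 (0.833), ARHGAP20 (0.809) and GSTT2B (0.8), and for MESP2 GSTT2B (0.874), TBX6 (0.861) and ZSWIM6 (0.858). APLNR was most like IFI16 (0.950), VAMP5 (0.908) and LOC729683 (0.896). PDGFRA was most like GATA6 (0.963), TUSC1 (0.959) and ZNF432 (0.957). The forkhead genes shared none of their 3: DLL3 (0.958), SNRNP35 (0.955) and AHI1 (0.952) for FOXC1, and P2RX4 (0.960), CLDN18 (0.929) and HYI (0.928) for FOXF1.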

How the data were processed

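RNA was made into stranded total RNA libraries and sequenced as read pairs. Per the labels and the study's methods, the authors aligned reads to hg19 with TopHat2 2.0.14 (Bowtie2 2.2.1.0, SAMtools 0.1.19.0), kept 1 best hit with at most 2 mismatches, and counted reads per RefSeq gene. The strand setting of the counting is not given in the sources used here. The deposited values are counts, with no normalization. Both reads of a pair can be counted: among values from 1 to 20, 57.5% to 62.7% per library were even, so a floor of 3 counts can stand for fewer than 3 fragments. Of 41627 RefSeq accessions, 40285 (96.8%, holding 97.1% of counts) matched a gene symbol, and the row with the largest total was kept for each of 23189 symbols. APLNR alone among the 10 genes had a second row. The 4 columns for day 10 replicates 1 and 2 of WT and ZEB2 shRNA cells were not used, and 30 of 34 samples in 15 groups of 2 remained. Totals ran from 9189943 to 90814577 counts, so that 3 counts stood for 0.0336 to 0.323 CPM. Such limits cover counting error only. The series' design text calls the replicates biological. The p-values rest on the spread between the 2 libraries within each group, pooled over all groups of a fit and drawn toward that of other genes.

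The main test was edgeR 4.0.16 (R 4.3.3, limma 3.58.1): TMM normalization, filterByExpr with a minimum count of 10, glmQLFit and glmQLFTest, and p-values adjusted by Benjamini-Hochberg over every gene in the fit. Lines of 1 day were fitted together, as were the days of 1 line. The interactions were fitted over all lines of both days. Standard errors (SE) were taken as the absolute log2 fold change over the root of the F statistic. A gene was called by the study's thresholds: 2-fold at 10% FDR at day 0, 4-fold at 10% at day 2, and 8-fold at 1% at days 6 and 10, with the later day's threshold for steps in time. "Rose", "fell", "higher" and "lower" without a call mean 5% FDR. CPM values were TMM-scaled over all 30 libraries, and lengths are those of annotated exons. Tables were handled with Python 3.11.15, pandas 2.3.3 and scipy 1.17.1. On simulated counts for ZNF503 shRNA against WT cells at day 2 (16299 genes, 200 changed), 76% of 2-fold, 98% of 4-fold and 100% of 8-fold and 16-fold changes passed 5% FDR, with 11 false calls. The changed genes were drawn only from those with an expected count well above the floor, so these rates do not cover genes near it. DESeq2 1.42.0, other size factors, no filter, 1 fit of all libraries, a replicate block, 5% FDR without a fold threshold, the second APLNR row and leaving out each library were tried as alternatives.

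The genes, 5 pathway lists (streak, organizer, paraxial, lateral plate and cardiac, ligands and relatives) and 8 marker lists (pluripotent, endoderm, hepatic, neural, endothelial, blood, cardiomyocyte, fibroblast and smooth muscle) were chosen with earlier results of these data known. From the pathway lists the text names, for each comparison it describes, at most 2 called genes with the largest rise and 2 with the largest fall whose libraries did not overlap and whose higher group had a mean of at least 1 CPM. For each of the 10 genes it names the 3 genes with the highest Pearson r over 15 groups, among candidates with a mean of at least 5 CPM in some group. The targeted genes are named too.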

Additional observations from a re-analysis of the deposited data

Results flagged for a closer look

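A change over time that differed between an shRNA line and WT cells was called 9 times, each by the interaction term in edgeR. These were 9 combinations of gene, line and step in time, and 5 different genes took part. LHX1 and PDGFRA with ZNF503 shRNA were called at both steps. Between day 0 and day 2, with the size given as the log2 change in the shRNA line minus that in WT cells, MESP1 stood at -4.93 with NKX2-5 shRNA and -4.40 with ZNF503 shRNA, and MESP2 at -2.69 with NKX2-5 shRNA. LHX1 stood at -2.62 with ZEB2 shRNA and -2.29 with ZNF503 shRNA. The receptors APLNR (-3.49) and PDGFRA (-2.55) were called with ZNF503 shRNA. Between day 2 and day 6 the sign was positive in ZNF503 shRNA cells, where LHX1 stood at 3.29 and PDGFRA at 3.08. Both steps use the same day 2 libraries, which enter them with opposite signs. The later values are therefore not independent of the earlier ones. Groups of 2 libraries were too small to look for a library that stands apart.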

How the results depend on the processing

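The limits first: each group holds 2 libraries, so 1 library can decide a value, counts of 3 or fewer at days 0, 6 and 10 limit MESP1, MESP2, MSGN1 and FOXF1, and at day 10 also GSC, MIXL1 and LHX1, and the shallowest library, replicate 4 of WT cells at day 10, held 9189943 counts. Numbers are genes of the 10 that were called. At 5% FDR without a fold threshold they rose at day 0 from 1 to 3 (NKX2-5 shRNA) and 1 to 2 (ZEB2), at day 2 from 3 to 5 (NKX2-5), at day 6 from 0 to 3, 3 and 4 (NKX2-5, ZEB2, ZNF503), and at day 10 from 1 to 2 (NKX2-5) and 0 to 1 (ZEB2). From day 2 to 6 they rose to 8 in WT, ZEB2 and ZNF503 shRNA cells, and from day 6 to 10 to 5 in WT and 7 in ZEB2 shRNA cells. Between NKX2-5 and ZNF503 shRNA cells they rose to 8 at day 2 and 3 at day 6, between NKX2-5 and ZEB2 shRNA cells at day 10 to 2, and for the interactions to 2 (ZEB2, day 0 to 2) and to 3, 3 and 4 (NKX2-5, ZEB2, ZNF503, day 2 to 6). Without the filter on low counts, ZNF503 shRNA cells gave 2 at day 0 and 1 at day 6, and NKX2-5 shRNA cells 1 at day 6. DESeq2 gave 2 for ZNF503 shRNA at day 0 and 1 between NKX2-5 and ZEB2 shRNA cells at day 10. In 1 fit of all 30 libraries ZNF503 shRNA gave 0 at day 0 and 1 at day 6, NKX2-5 shRNA 1 at day 6, NKX2-5 against ZEB2 shRNA 1 at day 10, and the NKX2-5 interaction from day 0 to 2 gave 1. RLE size factors and the second APLNR row moved none of these numbers by over 1.5 times. Of 307 fold changes of single genes, none crossed its threshold with RLE, 3 were lost and 2 gained with DESeq2, 1 lost and 6 gained without the filter, and 17 lost and 5 gained in 1 fit of all libraries. The cause of these changes was not tested, except that a rule without a fold threshold admits smaller changes.

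Leaving out 1 library gave 0 to 2 for NKX2-5 shRNA and 0 for ZNF503 shRNA at day 0, 5 to 6 for ZNF503 shRNA at day 2, 0 to 1 for NKX2-5 and for ZNF503 shRNA at day 6, 1 to 2 for NKX2-5 shRNA at day 10, and 0 to 1 for NKX2-5 against ZEB2 shRNA at day 10. For steps in time it gave 3 to 5 (WT and ZNF503 shRNA, day 2 to 6), 3 (NKX2-5 shRNA, day 2 to 6), 4 to 5 (ZEB2 shRNA, day 2 to 6), 1 to 2 (WT and ZEB2 shRNA, day 6 to 10) and 2 to 4 (NKX2-5 shRNA, day 6 to 10), and for the interactions 1 to 4 (NKX2-5, day 0 to 2), 3 to 5 (ZNF503, day 0 to 2) and 1 to 2 (ZNF503, day 2 to 6). Signs turned in values near 0 that had not passed the test: LHX1 with NKX2-5 shRNA at day 2 ran from -0.012 to 0.22, FOXC1 there from -0.14 to 0.018, and MESP1 from day 0 to day 2 with ZNF503 shRNA from -0.91 to 0.011.

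Replicate numbers recur across groups, but nothing in the labels ties a number to a batch or day, and the deviations of same-numbered libraries correlated between -0.411 and 0.505 over 34 pairs of groups, with 7 over 0.1 and 7 under -0.1, so that a pairing by number was not shown. Among the 6 pairs of lines at day 2, 4 were over 0.1 and the lowest was -0.00447. With a replicate block, 1 gene was called at day 6 with NKX2-5 shRNA and 1 with ZNF503 shRNA, in place of 0, and the other numbers kept within 1.5 times. The block could not be fitted where the groups share no number, as for NKX2-5 shRNA against the others at day 10.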
